A study of Mus musculus with 6 samples.

Results

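Hsd11b1 encodes the enzyme that regenerates active glucocorticoid inside cells. It was described in mouse islets together with both receptors that bind the hormone, Nr3c1 and Nr3c2, and with 4 genes that those receptors are known to induce, Fkbp5, Tsc22d3, Sgk1 and Zbtb16. The members were all probe sets whose platform gene symbol was exactly 1 of these 7 names, which gave 19 probe sets of the 45037 tested and 7 genes of the 18193 with such a probe set. A probe set is a group of short oligonucleotides on the array meant to read 1 transcript, though some can match several. The set was chosen by the Tead1KO against Flox difference of Hsd11b1 itself, so the members' differences in that contrast are given as a description, without a test.

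The study compared islets of 12-week-old male C57Bl6 mice that lack Tead1 in beta cells by a cell type specific knockout. These are called Tead1KO (3 arrays), and Tead1 is a DNA-binding factor that acts with the Hippo pathway coactivators. Islets of Flox mice of the same strain, sex and age were the controls (3 arrays). The labels name neither the Cre driver nor whether the Flox mice carried Cre, and they do not tie an array to a single animal, so the spread between arrays may be partly technical. Islets were picked by hand after collagenase digestion, and each value covers every cell type of the islet. Islet cells other than beta cells were not the stated target of the knockout, and their Tead1 was not measured apart. Fewer cells of a type and less RNA per cell cannot be told apart in such samples.

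In rodents the circulating glucocorticoid is corticosterone, which also occurs as an inert keto form. The Hsd11b1 enzyme sits in the endoplasmic reticulum and turns the inert form back into corticosterone, with NADPH that the enzyme of H6pd makes there, while the Hsd11b2 enzyme does the opposite. Corticosterone releases the receptors from their chaperones, and the receptors then bind DNA and raise targets such as Fkbp5 and Tsc22d3. In beta cells, glucocorticoids are known to lower insulin secretion.

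All signals are on the log2 scale as deposited, and all differences are Tead1KO minus Flox. Control probe sets for bacterial RNAs absent from the samples had signals of 2.87 to 4.70, which is called background here. Tead1KO replicate 3 stood apart from the other arrays. Its spiked hybridization controls averaged 13.23, against 12.09 and 10.87 on the other Tead1KO arrays and 10.60 to 11.89 on the Flox arrays. Its mean correlation with the other arrays was 0.969, where the other 5 arrays had 0.984 to 0.986. Its signals had the narrowest interquartile range, 2.65 against 2.99 to 3.32, and the highest median, 5.37 against 5.17 to 5.29. Where the difference of a member or named gene is printed below, its value without that array follows if the omission changed it by over 1.5 times or turned it. Other such values of members stand in the plot of member differences. The brighter Tead1 probe set averaged 6.72 ± 0.77 in Tead1KO and 7.20 ± 0.21 in Flox islets (SD, n = 3 each), with overlapping groups (difference -0.49, and -0.10 without Tead1KO replicate 3). Its position relative to the deletion was not known here. The labels were thus not checked by the targeted gene.

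Hsd11b1 was higher in every Tead1KO array than in any Flox array. Its single probe set, 1449038_at, read 8.97, 9.24 and 9.24 in the Tead1KO replicates, against 6.86, 7.17 and 7.03 in the Flox replicates. Both groups lay well above background and were tight. The means were 9.15 ± 0.16 in Tead1KO and 7.02 ± 0.15 in Flox (SD, n = 3 each). The difference was 2.13 (SE 0.17), a signal 4.37-fold higher, with a 95% interval of 3.33-fold to 5.74-fold. It was 2.08 without Tead1KO replicate 3. With any 1 of the 6 arrays left out it lay between 2.05 and 2.22.

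In the limma fit over all probe sets, with an adjusted p under 0.05 as the threshold, Hsd11b1 was the 1 member probe set of 19 that was called higher, and 0 were called lower. Of all 45037 probe sets, 0.131% were called higher and 0.0488% lower. Since Hsd11b1 chose the set, nothing is read from that count. The call, though not the difference, ended in fits without Tead1KO replicate 1 or without Flox replicate 1, 2 or 3. Hsd11b1 had rank 37 of all probe sets by the size of its rise. All 3 Tead1KO arrays lay above all 3 Flox arrays in 2 of the 19 probe sets, where 5.36% of all probe sets did so, and below in 0 of the 19, against 5.16% of all probe sets. The median difference was 0.09 over the 19 member probe sets and 0.03 over all probe sets.

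**Figure D1:**
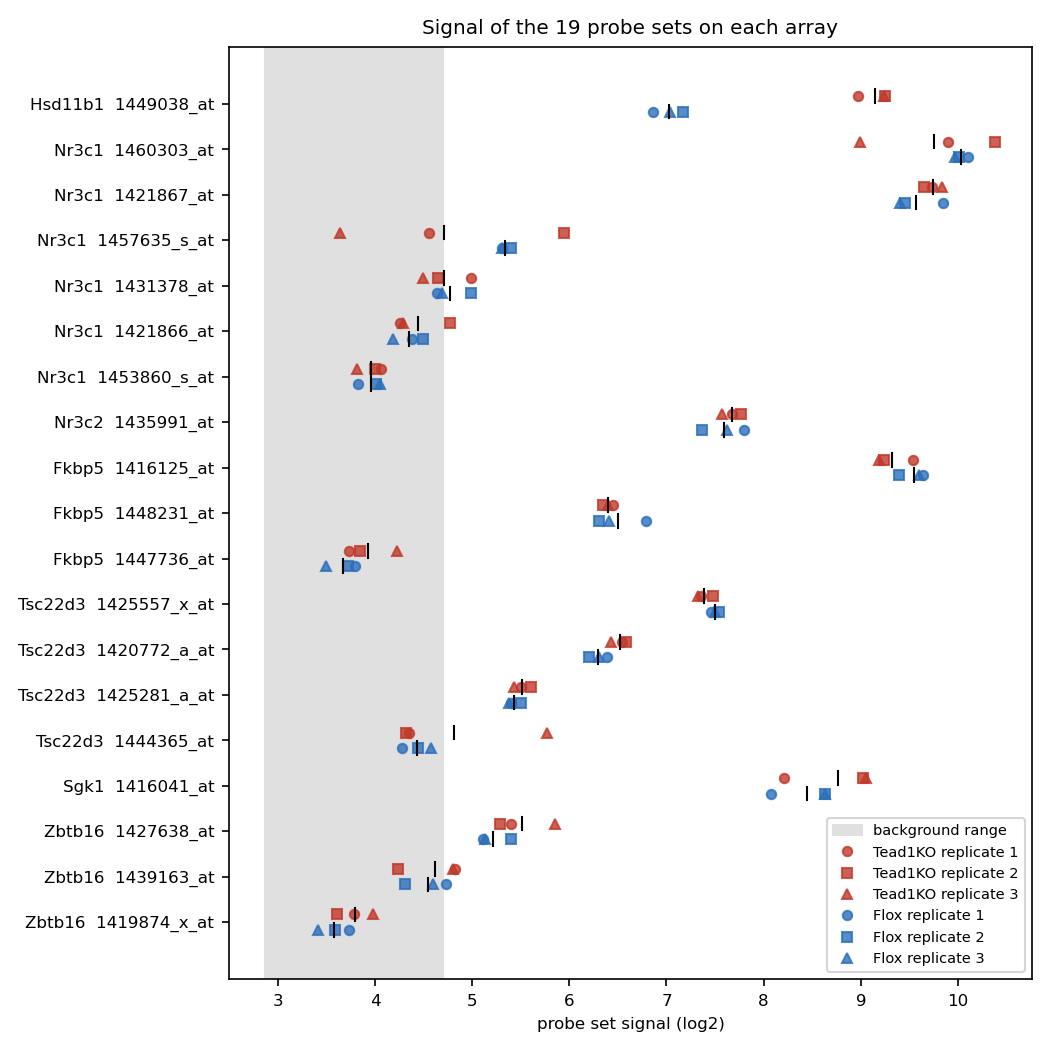
Signal of each of the 19 probe sets (log2, x axis) on each array, with Tead1KO in red above Flox in blue, symbols for replicates, black ticks for group means and the grey band for background (2.87 to 4.70). The Hsd11b1 groups are apart, at 9.15 in Tead1KO and 7.02 in Flox on average, while the other rows overlap except Tsc22d3 1420772_a_at.

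The promoter of Hsd11b1 is shown because the gene changed when a DNA-binding factor was deleted. The window, from RefSeq on GRCm38.p6, runs from 250 bases before to 50 bases after the start at chr1:193242311-193242610, minus strand, printed in the direction of transcription. Capitals mark matches on either strand to TTNNGNAA, a core that C/EBP factors bind, at bases -155 and -124 from the start. C/EBP factors are known regulators of Hsd11b1.

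Hsd11b1: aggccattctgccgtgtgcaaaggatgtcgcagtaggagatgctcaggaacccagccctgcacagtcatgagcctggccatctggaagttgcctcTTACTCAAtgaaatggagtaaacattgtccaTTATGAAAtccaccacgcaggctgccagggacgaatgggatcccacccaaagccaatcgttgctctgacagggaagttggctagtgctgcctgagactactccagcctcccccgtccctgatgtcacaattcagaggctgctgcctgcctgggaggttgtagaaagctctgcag

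The C/EBP core occurred in 40.7% of all 32851 promoter windows of this length, so its presence is common. The TEAD core GGAATG, searched on both strands, had no match in the Hsd11b1 window and occurred in 14.7% of all windows. No match says only that these letters are absent from this window.

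Of 5 measured transcription factors linked to Hsd11b1 in fat and liver cells, 0 were called (limma, 1 at an unadjusted p under 0.05, as 7.23% of all genes were). The background for such gene counts is 0.308% of the 18193 genes called, each by its brightest probe set. Pparg, the adipocyte nuclear receptor, read 8.09, 8.11 and 7.73 in Tead1KO and 8.81, 9.10 and 9.13 in Flox islets. The groups were apart, with Tead1KO lower (difference -1.04, SE 0.18, adjusted p = 0.125). It was called when the mean of the hybridization controls entered as a covariate (difference -0.87). Cebpb, a C/EBP factor, had a difference of -0.49 (SE 0.24), Nr1h3, an oxysterol receptor, of -0.24 (SE 0.17) and Cebpa, the liver and fat C/EBP factor, of 0.21 (SE 0.15), each with overlapping groups. Without Tead1KO replicate 3 the last 2 were -0.14 and 0.13. The median of the 5 was -0.24 (-0.14 without Tead1KO replicate 3), against -0.01 over all genes.

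None of the measured enzymes and carriers around Hsd11b1 was called, but over all genes only 0.308% were, so this says little. Of 9 measured genes of glucocorticoid conversion and carriage, 0 passed (limma, 2 at an unadjusted p under 0.05, where 7.23% of all genes were). The median difference was 0.03 (-0.02 without Tead1KO replicate 3). H6pd, which supplies the NADPH that Hsd11b1 uses, read 8.79, 9.12 and 8.25 in Tead1KO and 9.15, 9.50 and 9.32 in Flox islets. Every Tead1KO array was below every Flox array, by 0.60 on average (SE 0.24, adjusted p = 0.871), and the difference was -0.37 without Tead1KO replicate 3. Hsd11b2, the opposing enzyme, averaged 4.79 ± 0.34 in Tead1KO and 4.64 ± 0.09 in Flox islets (SD, n = 3 each), at the edge of background in Tead1KO and within it in Flox. Abcb1b, a membrane pump that exports steroids among other substrates, read 4.0, 4.13 and 4.44 in Tead1KO, within background, and 4.95, 5.24 and 4.88 in Flox islets. Its other probe set, 1446701_at, went the other way (0.42, and 0.20 without Tead1KO replicate 3), with Flox within background. Srd5a3, a reductase, had a difference of -0.46 (SE 0.30), and Akr1c6, a hydroxysteroid dehydrogenase, one of 0.29 (SE 0.20) with Flox within background. Without Tead1KO replicate 3 these were -0.16 for Srd5a3 and 0.09 for Akr1c6.

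Nr3c1, the glucocorticoid receptor, was read by 6 probe sets, of which 4 had both group means above background and 0 were called. Probe set 1421867_at read 9.73, 9.65 and 9.84 in Tead1KO and 9.85, 9.45 and 9.40 in Flox islets. The groups overlapped, with a difference of 0.17 (SE 0.17, 95% interval -0.22 to 0.57). Probe set 1460303_at read 9.89, 10.39 and 8.99 in Tead1KO and 10.10, 10.01 and 9.97 in Flox islets. Here the Tead1KO arrays scattered on both sides of the Flox arrays, and the difference of -0.27 (SE 0.32) became 0.11 without Tead1KO replicate 3 and -0.59 without replicate 2.

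Probe set 1457635_s_at of Nr3c1 lay at the edge of background, with 4.56, 5.95 and 3.64 in Tead1KO and 5.31, 5.40 and 5.31 in Flox islets. Tead1KO replicates 1 and 3 were within background, and replicate 2 was above all Flox arrays. Its difference of -0.62 (SE 0.49) became -0.08 without Tead1KO replicate 3 and -1.24 without replicate 2. The suffix of that probe set marks oligonucleotides that can match several transcripts. Probe set 1431378_at also lay at the edge of background (difference -0.06, SE 0.18, and 0.05 without Tead1KO replicate 3), and 1421866_at and 1453860_s_at lay within it in both groups. The probe sets of Nr3c1 thus gave differences from -0.62 to 0.17, and the 2 lowest came mainly from Tead1KO replicate 3, the array with the highest hybridization controls. Whether the array's quality set those values was not tested.

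Nr3c2, the mineralocorticoid receptor, which also binds corticosterone, was read by 1 probe set. It read 7.68, 7.77 and 7.57 in Tead1KO and 7.80, 7.37 and 7.62 in Flox islets. The groups overlapped (difference 0.08, SE 0.17, 95% interval -0.32 to 0.48, and 0.13 without Tead1KO replicate 3).

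The 4 receptor targets were read by 11 probe sets, 7 of them above background in both groups, and 0 were called. Of all probe sets, 0.131% were called higher and 0.0488% lower. The differences of these 7 ran from -0.23 to 0.31 with a median of 0.09, and 4 of the 7 were above 0. The highest upper bound of their 95% intervals was 0.95, for Sgk1. The other upper bounds were 0.16 and 0.31 for Fkbp5, 0.24, 0.57 and 0.41 for Tsc22d3 and 0.74 for Zbtb16. Each interval leaves room for a rise up to its own bound.

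Fkbp5, a co-chaperone that lowers the hormone affinity of the receptor and is induced by it, read slightly lower in Tead1KO on average in both probe sets above background. Probe set 1416125_at read 9.53, 9.23 and 9.19 in Tead1KO and 9.64, 9.40 and 9.60 in Flox islets. The groups overlapped, with Tead1KO lower on average (difference -0.23, SE 0.17, 95% interval -0.61 to 0.16). Probe set 1448231_at read 6.45, 6.35 and 6.40 in Tead1KO and 6.79, 6.31 and 6.41 in Flox islets (difference -0.10, SE 0.18). Probe set 1447736_at was within background on all arrays.

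Tsc22d3, a leucine zipper protein that carries part of the anti-inflammatory action of glucocorticoids, was read by 4 probe sets that did not move together. Probe set 1420772_a_at was 6.55, 6.59 and 6.43 in Tead1KO and 6.39, 6.21 and 6.30 in Flox islets. The Tead1KO arrays were all above the Flox arrays, by a small margin (difference 0.22, SE 0.15, 95% interval -0.13 to 0.57). The brightest, 1425557_x_at, was 7.35, 7.48 and 7.32 in Tead1KO and 7.45, 7.54 and 7.50 in Flox islets. Its groups overlapped and its difference was below 0 (-0.11, SE 0.15). Probe set 1425281_a_at gave 0.09 (SE 0.14). Probe set 1444365_at was above background in Tead1KO replicate 3 alone, at 5.77, and its difference of 0.38 (SE 0.36) was -0.10 without that array. The suffixes of the first 3 mark oligonucleotides that can match several transcripts, of this gene or others.

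Sgk1, a kinase that raises the activity of several ion channels and transporters, was read by 1 probe set. It read 8.21, 9.02 and 9.05 in Tead1KO and 8.08, 8.63 and 8.63 in Flox islets. The groups overlapped, and the lowest array of each was replicate 1 (difference 0.31, SE 0.27, 95% interval -0.32 to 0.95). The difference was 0.17 without Tead1KO replicate 3 and 0.59 without Tead1KO replicate 1. The same arrays had the lowest mean of 4 acinar cell markers. It was 12.01 in Tead1KO replicate 1, where the other Tead1KO arrays had 13.28 and 14.11, and 11.80 in Flox replicate 1, where the other Flox arrays had 13.94 and 14.29. The part of acinar cells in the Sgk1 signal was not tested.

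Zbtb16, a zinc finger transcription factor induced by glucocorticoids in many tissues, had 1 of 3 probe sets above background. Probe set 1427638_at read 5.40, 5.29 and 5.85 in Tead1KO and 5.11, 5.40 and 5.14 in Flox islets. The groups overlapped (difference 0.30, SE 0.19, and 0.13 without Tead1KO replicate 3). The other 2 probe sets had both group means within background.

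**Figure D2:**
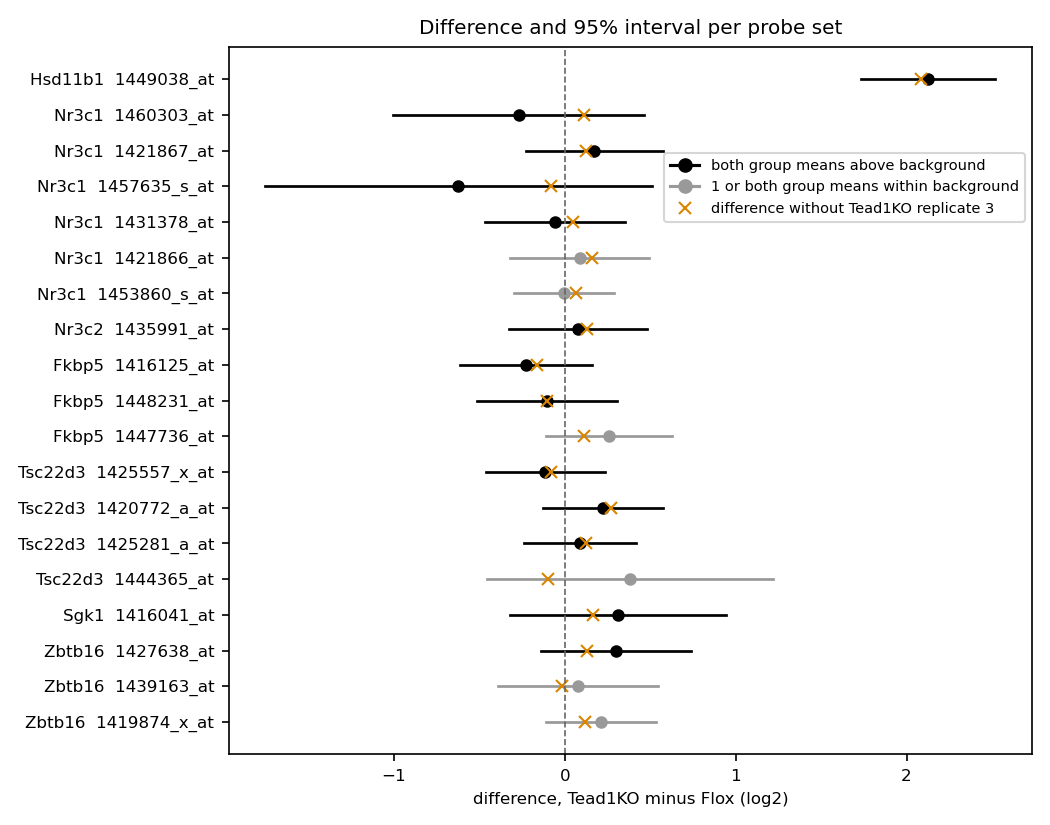
Difference between Tead1KO and Flox (log2, x axis) for each of the 19 probe sets, with 95% intervals, in grey where 1 or both group means lay within background; orange crosses give the difference without Tead1KO replicate 3. The interval of Hsd11b1, the gene that chose the set, is 1.73 to 2.52, and those of all other rows include 0.

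The promoter windows of Sgk1 and Tsc22d3 are shown for the receptor's own motif, because they are the members whose windows hold matches to it. The palindrome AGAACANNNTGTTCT, the glucocorticoid response element, was searched on both strands in the 12 windows of the 5 members that had any (Hsd11b1, Nr3c2, Fkbp5, Tsc22d3 and Sgk1). It occurred in 1 of them, an Sgk1 window, and in 3 of all 32851 windows (0.00913%). That window lies at chr10:21993640-21993939, plus strand, GRCm38.p6. Its palindrome begins at base -189 from the start, and the TEAD core, read on the other strand, at base -87. It is 1 of 6 Sgk1 windows. A half-site, TGTTCT, lay in 4 of the 12 windows. These were 3 of the 6 Sgk1 windows, with the printed one holding 3 copies, of which 2 are parts of the palindrome and another, at base -242, is left in lower case, and 1 of 3 Tsc22d3 windows (chrX:140600473-140600772, minus strand, base -185). In the sequences, capitals mark the palindrome and the TEAD core in Sgk1 and the half-site in Tsc22d3.

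Sgk1: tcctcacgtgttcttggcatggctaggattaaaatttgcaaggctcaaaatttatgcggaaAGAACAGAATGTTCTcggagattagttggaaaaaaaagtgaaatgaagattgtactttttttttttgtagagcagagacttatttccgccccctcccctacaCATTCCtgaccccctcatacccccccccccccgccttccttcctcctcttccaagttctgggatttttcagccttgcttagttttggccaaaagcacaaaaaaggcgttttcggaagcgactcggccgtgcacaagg

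Tsc22d3: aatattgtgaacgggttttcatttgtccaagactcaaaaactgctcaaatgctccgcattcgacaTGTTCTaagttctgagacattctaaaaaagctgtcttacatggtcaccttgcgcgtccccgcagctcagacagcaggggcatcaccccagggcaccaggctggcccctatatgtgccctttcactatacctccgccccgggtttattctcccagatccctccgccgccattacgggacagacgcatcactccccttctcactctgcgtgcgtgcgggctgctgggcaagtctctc

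The half-site occurred in 19% of all windows and is part of the palindrome. The single Fkbp5 window held neither the palindrome nor a half-site. A match is a stretch of letters and shows no binding, and receptor sites are often far from the start.

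A wider list of 45 genes known as receptor targets in other tissues, of which 44 were measured, held 1 call. Over all genes 0.308% were called. Fam107a, an actin-binding protein induced by stress and glucocorticoids in mouse brain, rose by nearly as much as Hsd11b1. Its brightest probe set, 1434202_a_at, read 9.21, 8.78 and 8.40 in Tead1KO and 6.66, 6.99 and 6.63 in Flox islets. The groups were far apart (difference 2.04, SE 0.23, adjusted p = 0.0230). Probe set 1434203_at read 9.18, 8.32 and 8.69 in Tead1KO and 6.70, 6.80 and 6.53 in Flox islets, again apart (difference 2.06, SE 0.23, adjusted p = 0.0230). A further, dim probe set, 1435918_at, gave -0.01, and -0.15 without Tead1KO replicate 3. The adjusted p of the brightest probe set was 0.139 without Tead1KO replicate 1 and 0.137 to 0.176 without any 1 Flox array, with differences of 1.83 to 2.15. It was 0.0513 when each array was centred on its median, where 1434203_at kept 0.0339.

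Fam107a stood alone in the list by the test. The list was written with earlier results of these data known, so its shares are given as a description. It had 0 genes called lower, and 9 of 44 (20.5%) had an unadjusted p under 0.05, where 7.23% of all genes did. Its median difference was 0.08, against -0.01 over all genes, with 26 of 44 above 0 (59.1%, against 48.9% of all genes) and 5 of 44 within background in both groups. All Tead1KO arrays were above all Flox arrays in 8 of 44 genes (18.2%) and below in 2 of 44 (4.55%), where 5.8% and 7.27% of all genes were. Besides Fam107a, 3 further genes named by rule were among the 8, and they were not called. Errfi1, an inhibitor of the EGF receptor, averaged 10.98 ± 0.19 in Tead1KO and 10.20 ± 0.36 in Flox islets (SD, n = 3 each, difference 0.78, adjusted p = 0.478). Its other probe set, 1419816_s_at, also had groups apart (difference 0.50, SE 0.15, adjusted p = 0.639). Txnip, a thioredoxin inhibitor, averaged 13.45 ± 0.13 in Tead1KO and 12.69 ± 0.43 in Flox islets (n = 3 each, difference 0.77, adjusted p = 0.507). Its other probe set, 1415997_at, also had groups apart (difference 1.11, SE 0.25, adjusted p = 0.294). Angptl4, an inhibitor of lipoprotein lipase, had a difference of 0.62 (SE 0.17, adjusted p = 0.534), and its other probe set lay within background. The rest of the 8 were Cdkn1c (0.50), Bcl6 (0.46), Irs2 (0.43) and Per1 (0.39), and they were not called either. The 2 genes below were Tgfbr3, a coreceptor for TGF-beta, and Fbxo32, a ubiquitin ligase of muscle wasting. Tgfbr3 read 7.43, 7.62 and 6.54 in Tead1KO and 8.41, 7.89 and 8.03 in Flox islets (difference -0.91, SE 0.30, adjusted p = 0.728, and -0.58 without Tead1KO replicate 3). Fbxo32 differed by -0.57 (SE 0.21, adjusted p = 0.853).

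**Figure D3:**
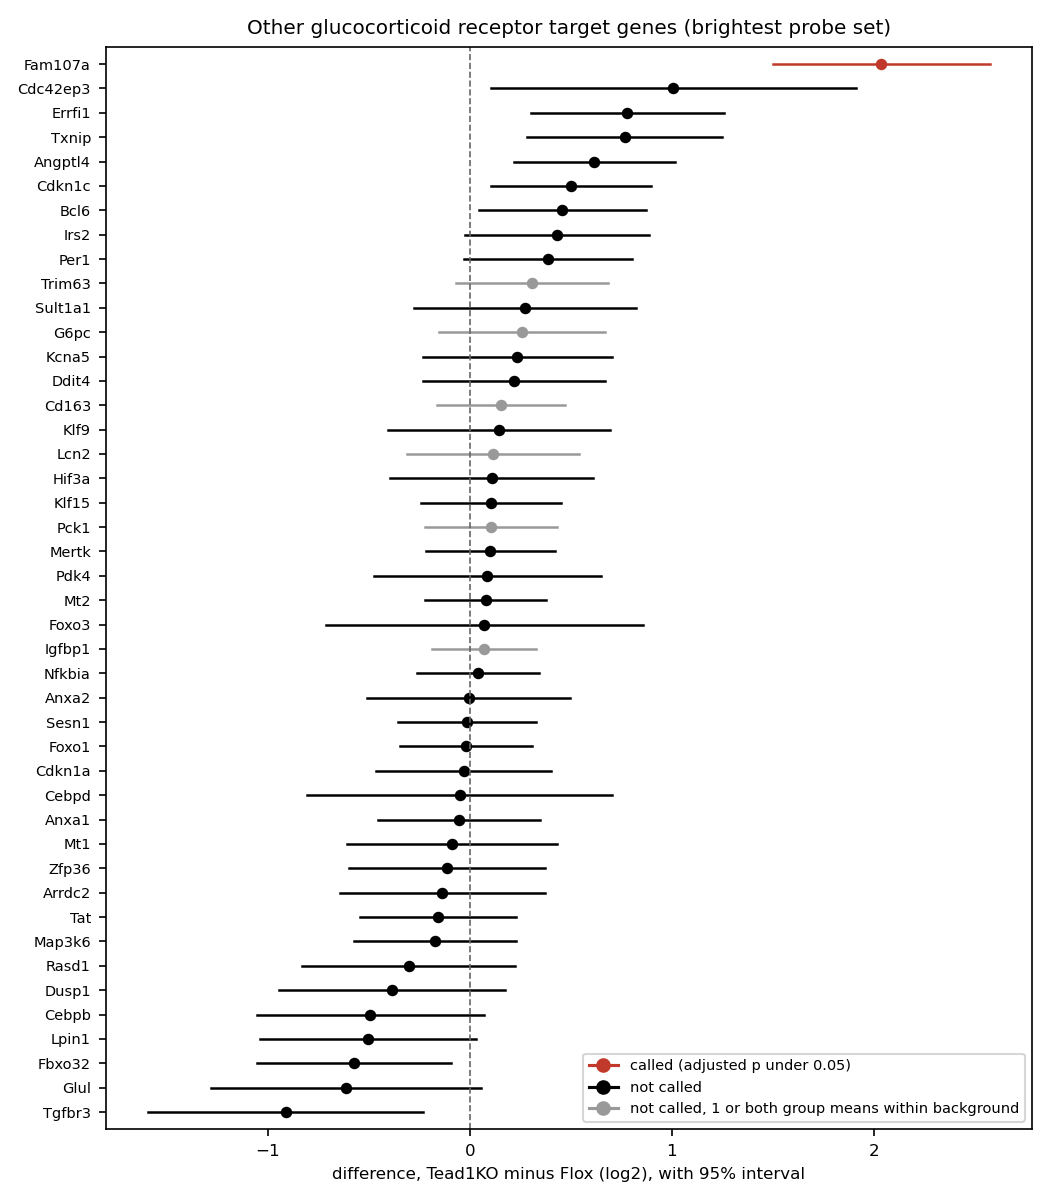
Difference between Tead1KO and Flox (log2, x axis) with 95% interval for the 44 other receptor target genes, by brightest probe set; red is called, grey has 1 or both group means within background. Fam107a, at 2.04, is the single called gene, and the median of the list is 0.08.

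The machinery between hormone and target showed no call. With 0.308% of all genes called, a count of 0 in lists this short says little. Of 10 measured chaperones of the receptors, 0 were called and 0 had an unadjusted p under 0.05 (limma). The median was -0.24, and 8 of 10 lay below 0, where 51.1% of all genes did. The median was -0.07 without Tead1KO replicate 3 and -0.03 when the hybridization control mean was a covariate. Those below 0 included Hsp90aa1, the chaperone that holds the receptor ready for hormone (-0.51, SE 0.23), Ipo13, a transport factor (-0.41, SE 0.27), Bag1, a co-chaperone (-0.27, SE 0.14), and Ppp5c, a phosphatase of the complex (-0.27, SE 0.17). Without Tead1KO replicate 3, Hsp90aa1 gave -0.31 and Ipo13 gave -0.14. Of 12 measured coregulators, 0 were called and 2 had an unadjusted p under 0.05, where 7.23% of all genes did. Their median was -0.19, but 0.04 without Tead1KO replicate 3 and 0.05 with that covariate. Ppargc1a, a coactivator of nuclear receptors, read 6.81, 6.97 and 6.53 in Tead1KO and 6.40, 5.90 and 6.02 in Flox islets, which did not overlap (difference 0.66, SE 0.20, adjusted p = 0.618). Its probe set 1456395_at also had groups apart (difference 1.05, SE 0.24, adjusted p = 0.294), with Flox within background. The remaining probe sets of Ppargc1a lay within background in both groups. Smarca4, a chromatin remodeler, was lower on every Tead1KO array (difference -0.49, SE 0.18, adjusted p = 0.854). Ncoa1 and Ncoa3, steroid receptor coactivators, had differences of -0.30 (SE 0.17) and -0.57 (SE 0.52), and without Tead1KO replicate 3 these were -0.17 for Ncoa1 and 0.13 for Ncoa3.

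Other outputs of the receptors were likewise without a call, where 0.308% of all genes were called. Of 15 inflammatory genes that glucocorticoids repress, 0 were called and 0 had an unadjusted p under 0.05. Their median was 0.15, but 0.02 without Tead1KO replicate 3 and 0.01 when adjusted for the hybridization control mean. Differences ran from -0.13 to 0.50, the highest for Il1a, a cytokine within background in both groups. Il1a gave 0.19 without Tead1KO replicate 3. The chemokines Cxcl1 and Ccl2 gave 0.22 (SE 0.22) and 0.19 (SE 0.19), and the adhesion molecules Vcam1 and Icam1 gave 0.19 (SE 0.18) and 0.16 (SE 0.16). Without Tead1KO replicate 3 the 4 differences were smaller, at 0.11 for Cxcl1, 0.02 for Ccl2, 0.10 for Vcam1 and 0.04 for Icam1. Of 11 measured genes that the mineralocorticoid receptor acts on, 0 were called and 0 had an unadjusted p under 0.05. Their median was 0.04 (0.07 without Tead1KO replicate 3). Scnn1g and Scnn1b, subunits of the epithelial sodium channel, gave 0.29 (SE 0.15) and 0.28 (SE 0.16), the ubiquitin ligase Nedd4l gave -0.35 (SE 0.34), and the kinase Wnk1 gave -0.27 (SE 0.23). Without Tead1KO replicate 3, Nedd4l gave 0.06 and Wnk1 gave -0.02. The arrays of Scnn1g did not overlap, with Tead1KO above.

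Of 5 measured genes reported to respond to glucocorticoids in beta cells, 0 were called, where 0.308% of all genes were. An unadjusted p under 0.05 was found for 4 of the 5 (limma), where 7.23% of all genes had it. The list was written with earlier results of these data known, so that count is given as a description. The median was -0.66, and -0.43 without Tead1KO replicate 3. Slc2a2, the glucose transporter, averaged 12.66 ± 0.39 in Tead1KO and 13.48 ± 0.10 in Flox islets (SD, n = 3 each, difference -0.82, adjusted p = 0.331), and it was called without Tead1KO replicate 2 (difference -1.03). Pdx1, a beta cell transcription factor, averaged 8.19 ± 0.44 in Tead1KO and 8.85 ± 0.17 in Flox islets (n = 3 each, difference -0.66, adjusted p = 0.854, and -0.43 without Tead1KO replicate 3). Its other probe set, 1422173_at, had groups apart (difference -0.77, SE 0.17, adjusted p = 0.294, and -0.68 without Tead1KO replicate 3). Glp1r, the incretin receptor, had a difference of -0.95 (SE 0.33, adjusted p = 0.809), which was -0.57 without Tead1KO replicate 3. Txnip, which is also on the receptor target list above, is the fourth and was higher in Tead1KO (difference 0.77). The list took no account of the direction of each gene's response, so its median does not measure a response. Slc2a2 is also on the list of beta cell markers given next.

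Hsd11b1 is known from stroma, macrophages, fat and liver, and glucagon-producing alpha cells have been reported to hold it in mouse islets, so marker lists of these cells were read on the same arrays. Of 37 measured markers, 0 were called (limma, 7 at an unadjusted p under 0.05, where 7.23% of all genes were). Over all genes 0.308% were called. The mean signal of 6 stromal fibroblast markers was 6.97 to 7.55 in Tead1KO and 6.72 to 6.96 in Flox islets, without overlap, and 6 of 6 had a difference above 0. Dcn (1.11) and Col1a2 (0.62), genes of the extracellular matrix, had groups apart, while Lum (0.48), Col1a1 (0.15), Col3a1 (0.06) and Pdgfra (0.04) overlapped. Pdgfra was within background in Flox islets. Without Tead1KO replicate 2, Col3a1 gave -0.20 and Col1a1 gave -4.83e-05. Without Tead1KO replicate 3, Lum gave 0.73, Col1a1 0.32, Col3a1 0.40 and Pdgfra -0.06. The mean of 4 adipocyte markers was 5.25 to 5.43 in Tead1KO and 5.01 to 5.16 in Flox islets, also without overlap. Fabp4, a fatty acid carrier (0.49), had groups apart, and the other 3 overlapped. Adipoq, the defining adipocyte gene of the list, was within background, at 3.78 in Tead1KO and 3.72 in Flox islets. Cidec and Lep had Flox means within background, at 4.42 and 4.68. In Tead1KO, Cidec read 5.39, 4.51 and 4.37, above background in replicate 1 alone. The mean of 3 measured beta cell markers was 12.66 to 13.04 in Tead1KO and 13.37 to 13.52 in Flox islets, lower in Tead1KO without overlap, and 0 of 3 had a difference above 0. Nkx6-1, a beta cell transcription factor (-0.95), and Slc2a2 (-0.82) had groups apart, while Ins2, insulin itself, read 15.69 in Tead1KO and 15.69 in Flox islets, at the top of the scale.

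The other marker lists overlapped between the groups. The means of 6 macrophage markers ran from 7.55 to 8.63 in Tead1KO and from 7.62 to 8.11 in Flox islets, and those of 6 liver genes from 7.08 to 8.0 in Tead1KO and 6.99 to 7.35 in Flox islets. The 2 measured alpha cell markers, Gcg and Irx2, averaged 11.33 to 11.68 in Tead1KO and 11.20 to 11.50 in Flox islets, and Gcg itself, at 14.74 in Tead1KO and 14.74 in Flox islets, is near the top of the scale. Within the liver list, Apoa1, an apolipoprotein, read 11.30, 9.13 and 5.96 in Tead1KO and 5.99, 6.80 and 5.53 in Flox islets. Its groups overlapped through Tead1KO replicate 3 (difference 2.69, SE 1.13, adjusted p = 0.871, and 4.11 without that array). Alb, the defining liver gene, gave 0.05, and -0.05 without Tead1KO replicate 3. Within the macrophage list, C1qa, a complement subunit, gave 1.08 (SE 0.38, adjusted p = 0.819) with overlapping groups, and the other 5 ran from -0.25 to 0.15. Without Tead1KO replicate 3 those 5 ran from -0.003 to 0.50. Endothelial, delta cell and acinar markers overlapped as well. The part of any of these cells in the Hsd11b1 signal was not tested.

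**Figure D4:**
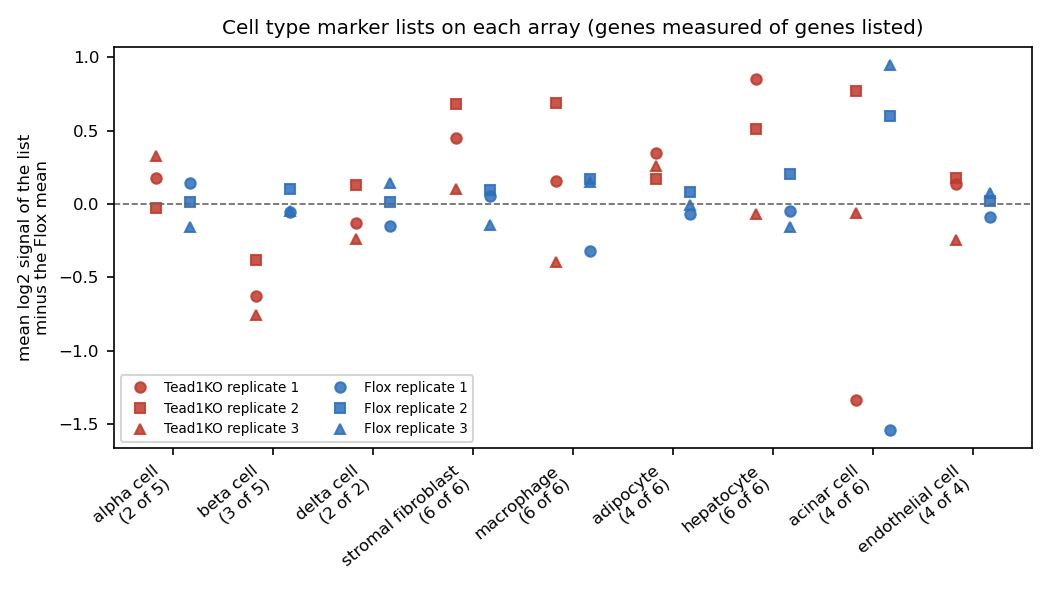
Mean log2 signal of each cell type marker list on each array minus the list's Flox mean (y axis), with Tead1KO in red left of Flox in blue, symbols for replicates, and the genes measured of those listed in brackets. Stromal and adipocyte lists lie above Flox in all 3 Tead1KO arrays, the beta cell list lies below, and the other lists overlap. In the adipocyte list, Adipoq, and in Flox islets Cidec and Lep, lie within background.

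The genes whose signal over the 6 arrays was most like that of Hsd11b1 were sought among 19847 single-symbol probe sets above the median signal of 5.24, by Pearson correlation. With 3 arrays in each of 2 groups, such a correlation mostly reflects the group difference, and it is given as a description. The 6 closest were Pld2, a phospholipase (r = 0.996), Ccbe1, a secreted factor for lymphatic vessels (0.994), C4bp, a complement regulator (0.993), Dpep1, a membrane dipeptidase (0.991), Kcns3, a potassium channel subunit (0.990), and Rac2, a small GTPase of blood cells (0.989). Their differences had a wide range of sizes. Pld2 1417237_at differed by 0.79 (SE 0.15), Kcns3 by 0.89 (SE 0.16) and Rac2 by 0.24 (SE 0.14), all less than Hsd11b1. That probe set is not the brightest of Pld2, so its likeness to Hsd11b1 may not hold for the gene. Dpep1 differed by 2.59 and Ccbe1 by 3.11, and C4bp was within background in Flox islets. Ccbe1, Dpep1 and C4bp had Flox means of 5.17, 5.16 and 3.33, below 5.24, so they passed the filter only through their Tead1KO arrays.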

How the data were processed

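In all, 6 arrays were compared, 3 of Tead1KO and 3 of Flox islets. The authors deposited log2 signals, 1 per probe set and array, and the submitters' processing notes name Affymetrix Expression Console. Neither version nor normalization was given in the sources used here. The scale was read from the values (2.75 to 15.7), which were used as deposited, without a filter.

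Probe sets were named from the platform annotation. Of 45037 non-control probe sets, 34945 had 1 symbol. Groups were compared with limma 3.58.1 in R 4.3.3 (lmFit, eBayes with a variance trend, no covariate) and Benjamini-Hochberg adjustment over all 45037, called under 0.05. Other genes were read by their brightest probe set, except in the search for genes most like Hsd11b1, which took any probe set that passed its filter. Listed genes without a single-symbol probe set were not analysed here. The procedure was tested on simulated data with independent noise per probe set. That test does not cover an array that stands apart, such as Tead1KO replicate 3. The number of arrays limits the precision.

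Members and lists were chosen with earlier results of these data known. Named genes were all members, each list's called genes, its 4 genes with the smallest p above background in either group, and the 6 most like Hsd11b1. Tead1, Hsd11b2, Tgfbr3, Fbxo32, Cdkn1c, Bcl6, Irs2, Per1, Il1a and the cell type markers were named outside that rule, after their values were seen. Alternatives changed normalization, filter, prior, probe sets, block, covariate, threshold and arrays.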

Additional observations from a re-analysis of the deposited data

How the results depend on the processing

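The Hsd11b1 difference stayed between 2.05 and 2.23 in every setting run, within 1 SD between arrays of 2.13. The counts of called probe sets moved far more. Against 59 higher and 22 lower, there were 95 and 48 after quantile normalization, 34 and 8 after median centring, 182 and 86 when the hybridization controls entered as a covariate, and 89 and 54 at an adjusted p under 0.1. Leaving out dim probe sets gave 38 lower, of 28031 tested. With 1 array left out the counts ran from 4 to 137 higher and from 0 to 152 lower. The fits with 0 lower were those without Tead1KO replicate 1 and without Flox replicate 1 (limma, 819 and 1068 lower at an unadjusted p under 0.05). The receptor target list had 0 calls instead of 1 after median centring (7 at an unadjusted p under 0.05) and after omission of probe sets with a shared-sequence suffix, which removes the brightest Fam107a probe set (7 likewise), while Fam107a 1434203_at was still called there (difference 2.06, adjusted p = 0.0167). With 1 array left out it had 0 to 1. Slc2a2 was called without Tead1KO replicate 2 (difference -1.03) and Pparg with that covariate (-0.87). Whether equal replicate numbers pair the arrays could not be decided. The deviations from the group means correlated by 0.06, 0.35 and -0.20 for arrays with equal numbers. For unequal numbers they correlated by -0.42 to 0.35, and 3 arrays per group are too few to tell. The replicate block gave 62 higher and 34 lower, and left the receptor target list at 1. Signals near 15.7 or within background limit what differences can be seen.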
